A study of Bos taurus with 16 samples.

Results

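The genes described here are those whose RNA was abundant in the skeletal muscle of the calves and close to absent from their liver. A gene was a member if its mean over the 8 muscle libraries was at least 20 CPM (a gene's count over the library total, times 1000000) and at least 100 times its mean over the 8 liver libraries plus 0.1 CPM. Of the 27607 gene IDs in the table, 209 met both conditions, and 208 remained after ABRA was left out. No gene of the SLC families was among them. The level in muscle against liver chose the members, so it is only described, whereas the comparison of IVP with MOET calves in muscle was not used by the rule and was tested.

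The calves were 8 healthy Holstein bulls of 1 breeding herd, 4 born from in vitro embryos (IVP) and 4 from embryos flushed from superovulated donor cows (multiple ovulation and embryo transfer, MOET). IVP oocytes were aspirated from the ovaries after mild stimulation and then matured, fertilized and cultured in serum-free media, whereas MOET donors were superovulated, inseminated and flushed. Embryos of both kinds were transferred fresh to recipient cows. The liver and the semitendinosus muscle of the hind leg of each calf gave 1 library each, 16 in all. IVP calves were 98 to 103 days old, and MOET calves 102 to 104 days apart from calf 3213, which was 144 days old. IVP calves 3208 and 3209 and MOET calves 3217 and 3218 were full brothers (the same donor cow and the sire Builder P). IVP calves 5833 and 5841 came from this donor cow and the sire My Dream P RC, and MOET calves 5932 and 3213 came from another donor cow and a sire each. Outside the full brothers, the parents and the way the embryo was produced cannot be told apart.

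Muscle fibres are built of sarcomeres, in which thick filaments of myosin pull on thin filaments of actin that are anchored in the Z-disc. Calcium released from the sarcoplasmic reticulum binds troponin on the thin filament and starts the contraction. Slow (type I) fibres carry the myosin heavy chain MYH7 and rely on oxidation, and fast (type II) fibres carry heavy chains such as MYH2 and fast isoforms of troponin and myosin light chain. The semitendinosus is a mixed muscle rich in fast fibres. Names were at hand for 34 of the 208 members (16.3%), which held 35.0% of the members' counts. Any of the other 174 that is described is given by its Ensembl ID. Of the 34 names, 20 came from a sheet, used here in part, of genes that the study selected by a combined test of methylation and expression in these muscles. The differences of these 20 genes between IVP and MOET calves are therefore not independent evidence. The other 14 names came from other tables of the study, and since the sheet was used in part, these genes may have been selected too.

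The deposited counts summed to between 23677247 and 25626474 per muscle library. The library of calf 3213 lay almost at the mean of the other MOET calves (median deviation over the members 0.0152 on the log2 scale, against 0.116 to 0.293 for the other 7 calves). It was kept in the fits but left out of means, SDs and statements on overlap, which cover 4 IVP and 3 MOET calves. The muscle markers ACTA1, MYH2, MYH7, MYLPF, TNNC2 and TNNT3, which are all members, summed to between 135008 and 157716 CPM in the IVP and between 158011 and 165033 CPM in these MOET calves. The libraries were not stranded, and reads of close paralogs, such as those of the myosin heavy chains and the actins, or of overlapping genes could be shared or lost. Positions of the genes and their sequences were not analysed here.

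Among the members, 54 had a mean of 1000 CPM or more in muscle, 96 had 100 to 1000 CPM and 58 had 20 to 100 CPM (quartiles 86.5, 238.5 and 1185 CPM). They made up 35 of the 50 most abundant genes of the muscle. In the liver 169 members stayed below 1 CPM and 39 reached at least 1 CPM. For 31 members no count was listed in any liver library, which allows a level of up to 0.0158 CPM (3 counts over the 8 libraries, counting error only). The 3 members closest to the limit on the muscle level had means of 20.2, 20.7 and 22.2 CPM, and the 3 genes that just missed it had 19.1, 18.7 and 18.3 CPM. Closest to the limit on the ratio were CAP2 (102.7 times), ENSBTAG00000048756 (106.0 times) and WNK2 (107.6 times) inside it, and ART3 (95.9 times), ENSBTAG00000052404 (93.1 times) and ENSBTAG00000010464 (91.4 times) outside it.

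The members together took up about as many of the counts of a muscle library as all other genes did. Their share was 46.3%, 53.8%, 42.9% and 46.4% in IVP calves 3208, 3209, 5833 and 5841, a mean of 47.3% ± 4.61 (SD, n = 4). In MOET calves 3217, 3218 and 5932 it was 53.3%, 52.1% and 50.4%, a mean of 51.9% ± 1.47 (SD, n = 3). IVP calf 3209 had the highest share of all, so the groups overlapped. Most of the spread lay in the 10 most abundant members, which held 26.7% ± 4.39 of the counts in the 4 IVP and 31.5% ± 0.987 in the 3 MOET calves (mean ± SD), whereas the other 198 members held 20.6% ± 0.684 and 20.4% ± 0.490. In the liver libraries the members' share lay between 0.0401% and 0.0549%.

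**Figure D1:**
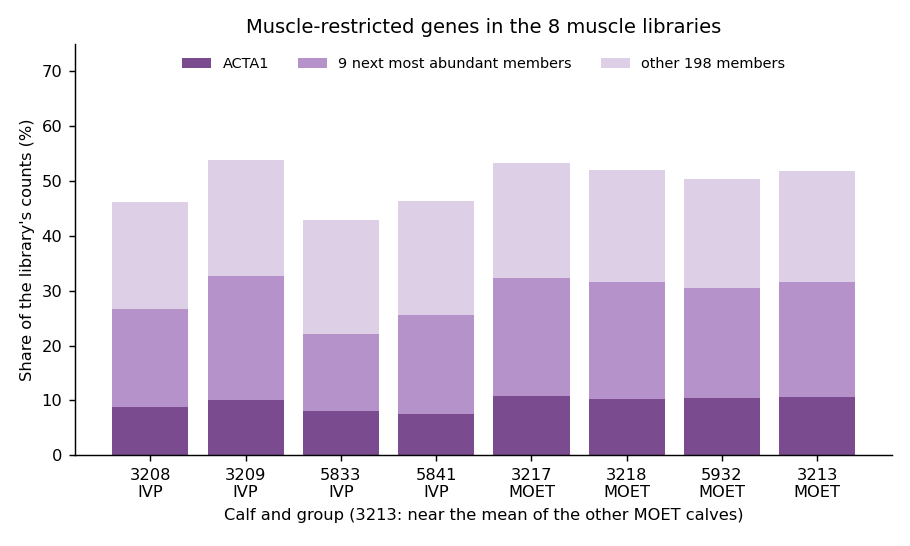
Share of the counts of each muscle library (vertical axis, %) held by ACTA1, by the 9 next most abundant members and by the other 198 members, for the 4 IVP and the 4 MOET calves. The pale segment stays between 19.6% and 21.2%, while the 2 darker ones together range from 22.1% (IVP calf 5833) to 32.6% (IVP calf 3209).

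Among 207 members tested, 1 passed an FDR of 0.05 between IVP and MOET calves (edgeR's quasi-likelihood test with age as covariate, Benjamini-Hochberg adjustment over all genes), which is 0.483% of them, near the 0.467% of the 12854 genes tested that did (0.28% higher and 0.187% lower in IVP). At an FDR under 0.1 there were 12 members (5.80%), against 3.29% of all genes and 4.17% of the other genes of at least 20 CPM. An unadjusted p under 0.05 was reached by 54 members, 30 with positive and 24 with negative log2 fold changes, which is 26.1% of them against 19.8% of all genes (11.4% positive, 8.43% negative) and 22.9% of the other 3379 genes of at least 20 CPM. By source of the name, these were 16 of the 20 members named through that sheet, 3 of the 14 other named members and 35 of the 173 without a name (20.2%). The count at an FDR of 0.05 depended on the model. DESeq2's Wald test with age called 20 members (9.71%), against 4.21% of all genes and 5.83% of the other genes of at least 20 CPM. Without age it called 45 (21.7%, against 13.1% and 19.4%), and this fit was not repeated without calf 3213. Without age edgeR called 32 members (15.5%), against 9.13% of all genes and 11.0% of the other genes of at least 20 CPM. When calf 3213 was left out as well, it called 1 (0.483%, against 0.634% and 0.858%). With age and without IVP calf 3209 it called 14 (6.76%, against 2.69% and 4.26%). The member that was not tested, ENSBTAG00000011995, had 177.4 CPM in IVP calf 3208 and at most 0.0422 CPM in each of the other 7 calves.

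The member that changed past the threshold was ENSBTAG00000017524, which no table used here names. It had 9.91, 11.3, 11.4 and 16.4 CPM in IVP calves 3208, 3209, 5833 and 5841. In MOET calves 3217, 3218 and 5932 it had 29.4, 24.8 and 49.1 CPM. Every IVP calf lay below every MOET calf, and the IVP mean was lower than the MOET mean, at 12.2 ± 2.85 CPM (SD, n = 4) against 34.5 ± 12.9 CPM (SD, n = 3) (log2 fold change -1.52, SE 0.195, FDR 0.00973 from edgeR). Between the full brothers alone the log2 fold change was -1.35 (SE 0.142, FDR 0.0163), and over the 21 alternatives it stayed between -1.70 and -1.26, with an FDR of at most 0.0474. With a mean over the 8 muscle libraries close to the limit of 20 CPM, it is one of the less abundant members. Its IVP mean lay below this limit, so it met the rule only through the MOET calves. Its choice as a member and its difference between the groups are therefore not independent.

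The log2 fold changes of the members spread wider than those of other abundant genes, in both directions. A log2 fold change below -0.25 was estimated for 71 members (34.3%, against 16.3% of all genes) and one above 0.25 for 41 (19.8%, against 23.1%). Among the other genes of at least 20 CPM these shares were 15.3% and 12.6%. With age in the model, the median over the members was -0.11, against 0.02 over all genes and -0.04 over the other genes of at least 20 CPM. The members had 80 positive and 127 negative values (61.4% below 0), against 47.7% below 0 among all genes and 57.2% among these other genes. The median of the members moved to -0.20 without IVP calf 3209 or with calves of 1 donor cow alone, to -0.19 without MOET calf 5932, to -0.0676 without MOET calf 3217 and to -0.0527 without IVP calf 5833. By level, the median was -0.16 for members of 1000 CPM or more, -0.10 for those of 100 to 1000 CPM and -0.07 for those below. In 54 members the 4 IVP calves and the 3 MOET calves did not overlap in CPM (26.1%, against 14.0% of all genes), 23 with IVP calves above (8.18% of all genes) and 31 with IVP calves below (5.86%). Among the other genes of at least 20 CPM, 17.6% did not overlap, 7.8% with IVP calves above and 9.9% below. On the scale of TMM, which corrects the library totals for composition, there were 41 such members, 18 above (10.4% of all genes) and 23 below (8.67%). Together these were 19.8% of the members, against 19.0% of all genes and 22.7% of the other genes of at least 20 CPM. The excess of members without overlap was thus seen on 1 of the 2 scales.

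**Figure D2:**
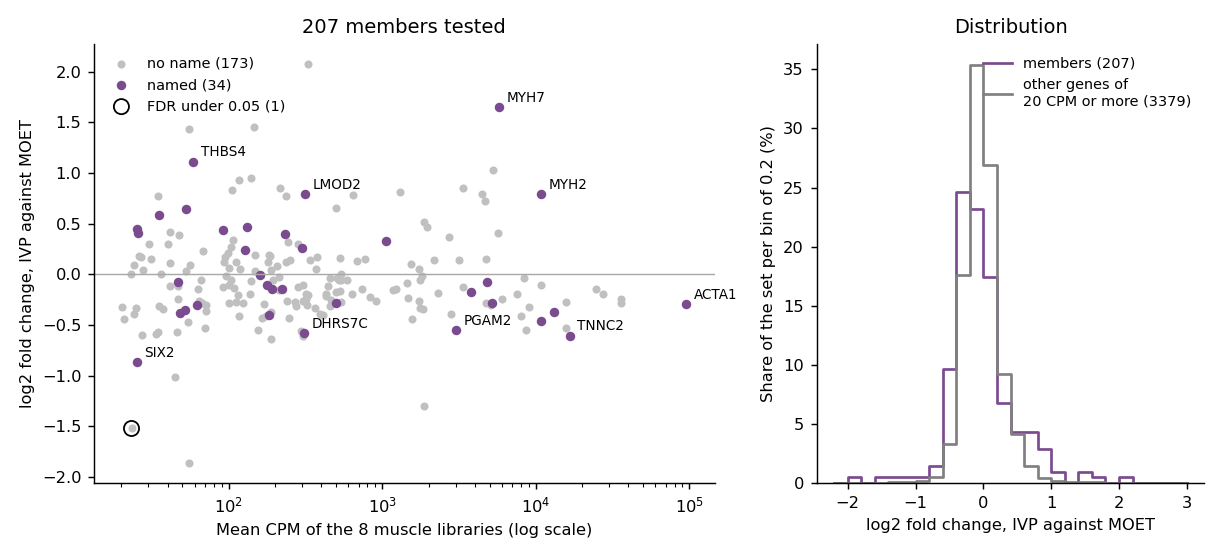
Left, log2 fold change of IVP against MOET calves (vertical axis) by mean CPM over the 8 muscle libraries (log scale) for the 207 members tested; purple points have a name and the circle marks the member with an FDR under 0.05. Right, distribution of the log2 fold changes of the members and of the other 3379 genes of at least 20 CPM, as the share of each set per bin of 0.2; the members spread wider on both sides of 0.

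The thick filament and its M-band, where myosin tails are cross-linked, gave 6 named members. None passed an FDR of 0.05. Positive values with an unadjusted p under 0.05 were seen in 4 of the 6, where 11.4% of all genes had such values. The study's selection named 4 of the 6, and 3 of those past this p. MYH7, the heavy chain of slow fibres, had 5423, 4677, 15955 and 9850 CPM in IVP calves 3208, 3209, 5833 and 5841. It had 3679, 2315 and 1994 CPM in MOET calves 3217, 3218 and 5932. The IVP calves lay above the MOET calves without overlap, and the 2 sons of My Dream P RC were the highest (log2 fold change 1.65, SE 0.402, FDR 0.0846). Between the full brothers the log2 fold change of MYH7 was 0.75 (SE 0.246, FDR 0.247), against 1.65 over all calves, a difference that was not tested.

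MYH2, the heavy chain of fast oxidative fibres, had 11218, 11451, 15176 and 17954 CPM in the IVP calves (in the order above) and 7947, 6507 and 8757 CPM in the MOET calves. The groups did not overlap (log2 fold change 0.79, SE 0.225, FDR 0.112), and the value between the full brothers was 0.65 (SE 0.213, FDR 0.248). MYLPF, the regulatory light chain of fast fibres, pointed the other way, with 10247, 11268, 6500 and 8447 CPM in the IVP calves and 11786, 12590 and 13215 CPM in the MOET calves (log2 fold change -0.46, SE 0.263, FDR 0.354). MYOM1, or myomesin, which links thick filaments in the M-band, lay at 1195 ± 138 CPM (SD, n = 4) against 919.5 ± 64.6 CPM (SD, n = 3) in IVP against MOET calves (log2 fold change 0.33, SE 0.148, FDR 0.25). SMYD1, a methyltransferase that assists the folding of myosin, had 48.9, 38.4, 36.7 and 44.5 CPM in the IVP calves and 26.6, 23.9 and 32.9 CPM in the MOET calves, again without overlap (log2 fold change 0.58, SE 0.141, FDR 0.0845). MYO18B, an unconventional myosin needed for sarcomere assembly, overlapped between the groups (log2 fold change -0.28, SE 0.14, FDR 0.294).

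The thin filament gave 5 named members, 2 with positive and 3 with negative values, and none passed an FDR of 0.05. ACTA1, the actin of skeletal muscle, was the most abundant gene of the tissue. It had 88186, 100186, 80698 and 75702 CPM in IVP calves 3208, 3209, 5833 and 5841. It had 107295, 102183 and 103974 CPM in MOET calves 3217, 3218 and 5932. Each IVP calf lay below each MOET calf in CPM, but the difference was within the error of the fit (log2 fold change -0.29, SE 0.321, FDR 0.645).

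The fast troponin genes named among the members, TNNC2 and TNNT3, had negative values. TNNC2, the subunit of fast fibres that binds calcium, had 14744, 16147, 9541 and 12361 CPM in the IVP calves and 18557, 20261 and 21097 CPM in the MOET calves. These did not overlap (log2 fold change -0.60, SE 0.271, FDR 0.248), and between the full brothers the log2 fold change was -0.32 (SE 0.227, FDR 0.542). TNNT3, which ties the fast troponin complex to tropomyosin, had 11682, 13987, 9112 and 10694 CPM in the IVP calves and 13854, 14154 and 15995 CPM in the MOET calves. Here IVP calf 3209 reached the MOET range (log2 fold change -0.37, SE 0.245, FDR 0.417). LMOD2, a leiomodin that lengthens thin filaments, was highest in the sons of My Dream P RC, with 243, 286, 646 and 458 CPM in the IVP calves against 224, 208 and 243 CPM in the MOET calves. The groups overlapped (log2 fold change 0.79, SE 0.25, FDR 0.136), and the full brothers gave 0.30 (SE 0.139, FDR 0.361). CAP2, a regulator of actin filaments, lay at 107 ± 11.8 CPM (SD, n = 4) against 77.3 ± 11.5 CPM (SD, n = 3), without overlap (log2 fold change 0.44, SE 0.131, FDR 0.121).

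**Figure D3:**
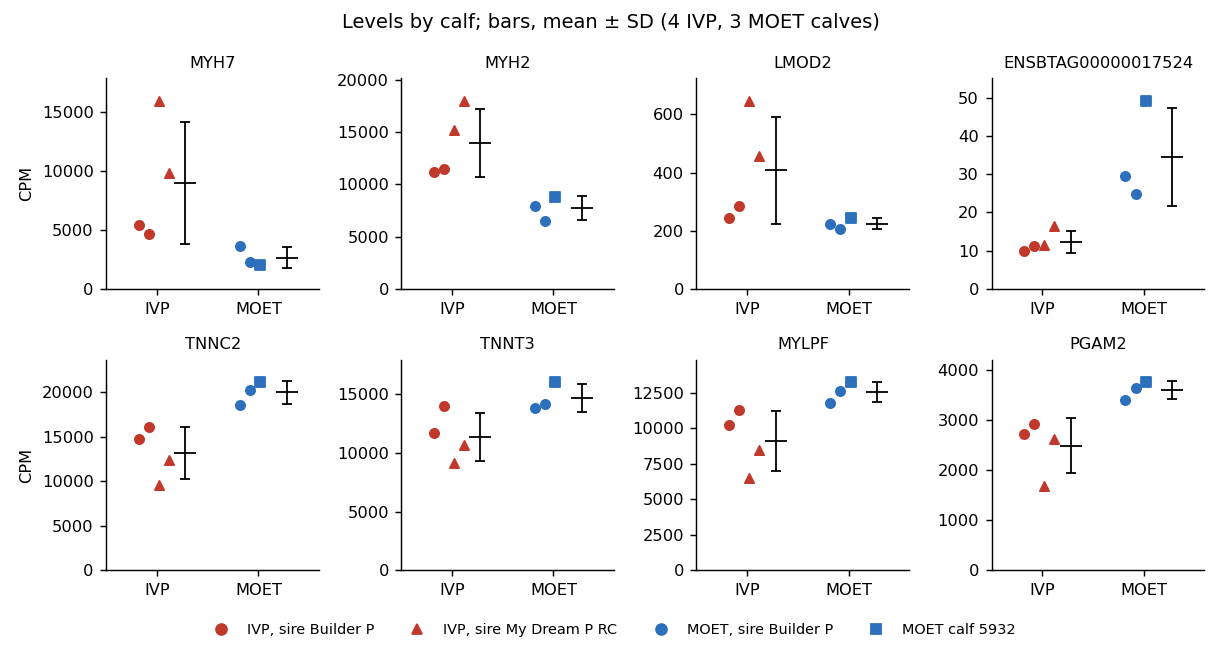
CPM (vertical axes, from 0) of 8 members in the muscle of the 4 IVP calves and of MOET calves 3217, 3218 and 5932, with the mean and SD of each group; circles are full brothers and triangles the 2 IVP sons of My Dream P RC. MYH7 and LMOD2 are highest, and TNNC2, TNNT3, MYLPF and PGAM2 lowest, in IVP calf 5833, and the circles of the 2 groups lie closer together than the group means for MYH7.

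Set against the lists of fibre-type genes, 6 of the 22 fast genes and 2 of the 20 slow genes could be found by name among the members. Only 31.8% and 25% of these lists have a name here, so they were not tested and are described. The fast members MYLPF, MYOZ1, PGAM2, TNNC2 and TNNT3 had negative and MYH2 a positive value (median -0.42). The slow members MYH7 and LMOD2 had values of 1.65 and 0.79, and of 0.75 and 0.3 between the full brothers. Of the listed genes with a name that are no members, the slow genes ATP2A2 (1.5) and CASQ2 (0.99) and the fast gene MYH4 (0.43) had positive log2 fold changes. TNNI3, on the slow list but the gene of cardiac troponin I, had 0.78, with 3.40 CPM in muscle and 3.27 CPM in liver. None of these had an FDR under 0.05. In bulk RNA, fewer fibres of a type and less RNA of a gene per fibre cannot be told apart. Over all role and fibre lists, 16 members and 21 other genes had a name, 8 and 9 reached an unadjusted p under 0.05 (19.8% of all genes did), and none had an FDR under 0.05. The sheet of selected genes gave 9 of the 16 and 5 of the 21 names, and 6 and 3 of those past this p.

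The 3 named members of the Z-disc had log2 fold changes between -0.28 and 0.24, none with an unadjusted p under 0.05. LDB3, a PDZ and LIM protein bound to alpha-actinin, lay at 3596 ± 164 CPM (SD, n = 4) against 3965 ± 331 CPM (SD, n = 3) (log2 fold change -0.17, SE 0.163, FDR 0.588). MYOZ1, a calcineurin-binding protein of fast fibres, lay at 4722 ± 672 CPM (SD, n = 4) against 5625 ± 657 CPM (SD, n = 3) (log2 fold change -0.28, SE 0.226, FDR 0.511). Both overlapped between the groups. MYPN, or myopalladin, did not overlap, at 139.8 ± 9.19 CPM (SD, n = 4) against 116 ± 8.67 CPM (SD, n = 3), with log2 fold change 0.24, SE 0.129, FDR 0.325.

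Among 9 named members of the muscle membrane and of calcium handling, 2 had positive and 7 negative values, and 4 reached an unadjusted p under 0.05 (19.8% of all genes did), of which DHRS7C, HHATL and AKAP6 were named through the study's selection. RYR1, the channel that releases calcium from the sarcoplasmic reticulum, had 4317, 5712, 4020 and 4902 CPM in the IVP calves and 5446, 4831 and 4303 CPM in the MOET calves. The groups overlapped widely (log2 fold change -0.07, SE 0.221, FDR 0.885). SCN4A, the sodium channel that carries the action potential of the fibre, did so too (log2 fold change -0.14, SE 0.175, FDR 0.683). DHRS7C, a dehydrogenase of the sarcoplasmic reticulum, had 220.4, 258, 243 and 288 CPM in the IVP calves and 330.3, 395 and 375 CPM in the MOET calves. All IVP calves lay below all MOET calves (log2 fold change -0.58, SE 0.129, FDR 0.072), and the full brothers differed by -0.59 (SE 0.15, FDR 0.204).

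HHATL lay at 161 ± 27 CPM (SD, n = 4) against 206 ± 4.11 CPM (SD, n = 3) without overlap (log2 fold change -0.40, SE 0.147, FDR 0.175). AQP4, the water channel of the fibre membrane, had 41.5, 58.5, 72.1 and 89.2 CPM in the IVP calves and 33.7, 40.2 and 45.9 CPM in the MOET calves. It overlapped only through IVP calf 3208 (log2 fold change 0.65, SE 0.187, FDR 0.114). AKAP6, an anchor of protein kinase A at the nuclear envelope, did not overlap, at 29.6 ± 4.88 CPM (SD, n = 4) against 21.7 ± 3.0 CPM (SD, n = 3) (log2 fold change 0.41, SE 0.122, FDR 0.12). CAVIN4 of the caveolae (-0.11), DTNA of the dystrophin complex (-0.01) and ANO5, a gene of limb-girdle muscular dystrophy (-0.07), had log2 fold changes close to 0 and overlapped between the groups, and the value of DTNA was positive with upper quartile factors (0.0085) or library totals (0.02).

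Of the genes of metabolism, PGAM2, the muscle form of the glycolytic enzyme phosphoglycerate mutase, had 2712, 2910, 1681 and 2620 CPM in the IVP calves and 3390, 3627 and 3745 CPM in the MOET calves. Every IVP calf lay below every MOET calf (log2 fold change -0.55, SE 0.23, FDR 0.22), and between the full brothers the log2 fold change was -0.31 (SE 0.171, FDR 0.429). PERM1, a regulator of oxidative genes, overlapped between the groups (log2 fold change 0.26, SE 0.152, FDR 0.369).

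The other 9 named members serve signalling, transcription and the matrix. Among them 7 had an unadjusted p under 0.05 (19.8% of all genes did), 4 with positive and 3 with negative values. However, the study's selection named 7 of the 9, and 6 of those past this p. The largest positive value was that of THBS4, a thrombospondin of the matrix around fibres and tendons. It had 86.3, 51.5, 106 and 84.3 CPM in IVP calves 3208, 3209, 5833 and 5841. It had 42.1, 40.5 and 25.3 CPM in MOET calves 3217, 3218 and 5932. IVP calves lay above MOET calves (log2 fold change 1.11, SE 0.239, FDR 0.0693), and the log2 fold change between the full brothers was 0.74 (SE 0.206, FDR 0.215). SIX2, a homeobox factor, had 16.7, 23.8, 13.6 and 18.3 CPM in the IVP calves and 32.7, 35 and 29.5 CPM in the MOET calves. IVP calves lay below MOET calves (log2 fold change -0.87, SE 0.201, FDR 0.0761), and the full brothers gave -0.73 (SE 0.173, FDR 0.199). IVP calves 3208, 5833 and 5841 lay below the limit of 20 CPM, and MOET calves 3217, 3218 and 5932 above it. The choice of SIX2 as a member and its difference are therefore not independent.

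HOXA9, another homeobox gene, overlapped between the groups at 42.5 ± 5.32 CPM (SD, n = 4) against 53.8 ± 7.09 CPM (SD, n = 3) (log2 fold change -0.38, SE 0.112, FDR 0.12). MLF1 lay at 154 ± 17.8 CPM (SD, n = 4) against 108 ± 9.06 CPM (SD, n = 3) without overlap (log2 fold change 0.47, SE 0.156, FDR 0.145). ADCY2, an adenylyl cyclase, lay at 269 ± 46.1 CPM (SD, n = 4) against 196 ± 16 CPM (SD, n = 3), also without overlap (log2 fold change 0.40, SE 0.136, FDR 0.154). CDNF, a secreted factor first described in neurons, had 25.1, 22.4, 30.2 and 41.1 CPM in the IVP calves and 20.1, 20.6 and 21.6 CPM in the MOET calves (log2 fold change 0.45, SE 0.151, FDR 0.151). The splicing factor RBFOX1 did not overlap (log2 fold change -0.30, SE 0.127, FDR 0.229). The kinase WNK2 (-0.14) and LRRC30 (-0.35) overlapped and had the other 2 log2 fold changes of this group.

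**Figure D4:**
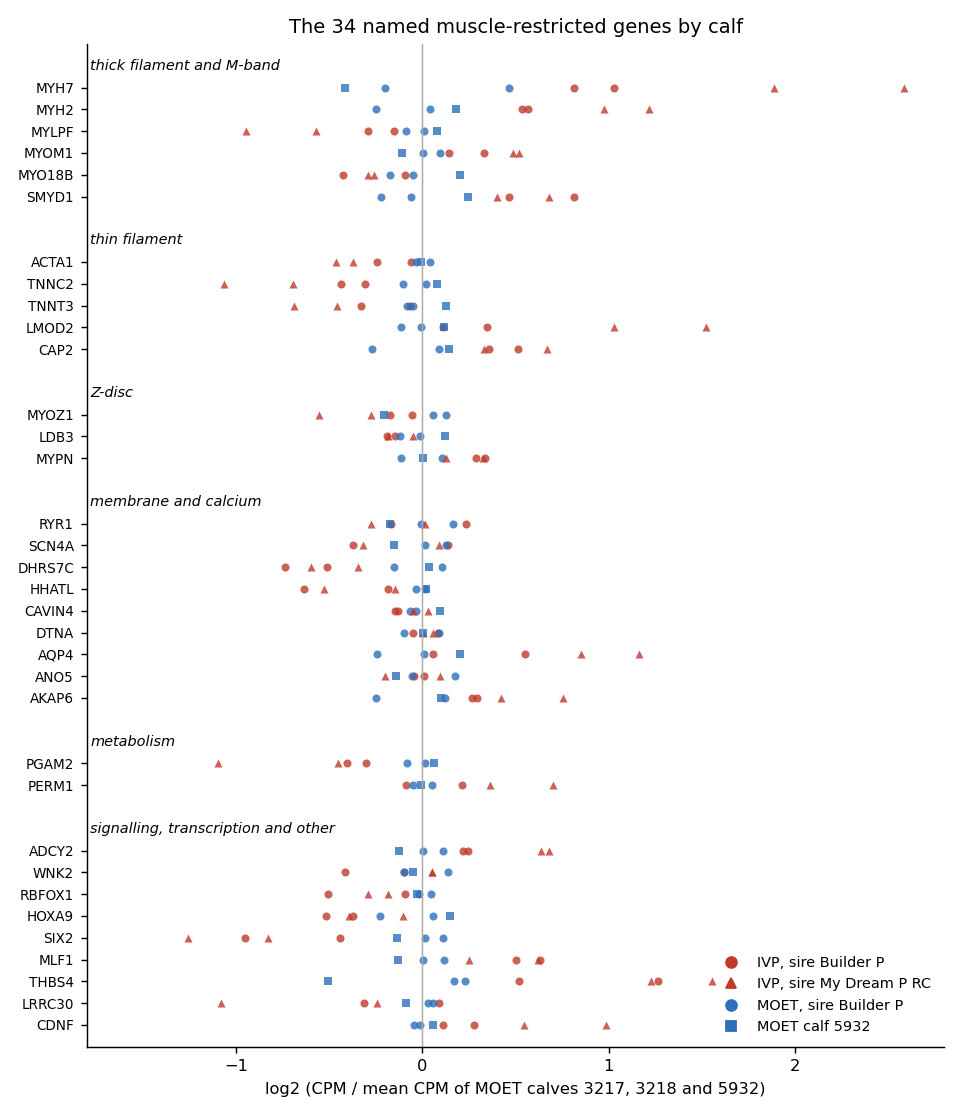
Level of each of the 34 named members in each calf as log2 of its CPM over the mean CPM of MOET calves 3217, 3218 and 5932 (horizontal axis), by role. Red marks are IVP and blue marks MOET calves; in MYH7, LMOD2 and MYLPF the IVP sons of My Dream P RC (triangles) lie farther from 0 than the IVP sons of Builder P (circles).

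Among members without a name, the wide differences without overlap were seen in both directions. ENSBTAG00000011734 had 775, 316, 875 and 178 CPM in IVP calves 3208, 3209, 5833 and 5841. It had 86.4, 160.1 and 137 CPM in MOET calves 3217, 3218 and 5932 (log2 fold change 2.08, SE 0.48, FDR 0.0761). The IVP calves ranged widely among themselves, and the lowest of them was close to the highest MOET calf. ENSBTAG00000046177 had 579, 1847, 977 and 966 CPM in the IVP calves and 2675, 2858 and 2443 CPM in the MOET calves (log2 fold change -1.3, SE 0.333, FDR 0.0926). Here IVP calf 3208 was the lowest and calf 3209, its full brother, the highest of the IVP calves. ENSBTAG00000005714 lay at 29.7 ± 10.2 CPM (SD, n = 4) against 60.3 ± 16.5 CPM (SD, n = 3) (log2 fold change -1.02, SE 0.284, FDR 0.109). ENSBTAG00000046512 lay at 281 ± 103 CPM (SD, n = 4) against 152 ± 14.9 CPM (SD, n = 3) (log2 fold change 0.85, SE 0.199, FDR 0.0781). ENSBTAG00000018369 had 4865, 3819, 13575 and 6700 CPM in the IVP calves and 3723, 3497 and 2790 CPM in the MOET calves. Calf 5833 stood far above the rest (log2 fold change 1.03, SE 0.362, FDR 0.16), and the full brothers gave 0.27 (SE 0.19, FDR 0.546).

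Of the 10 most abundant members, 9 had negative log2 fold changes (median -0.27) and MYH2 a positive one, and none passed an FDR of 0.05. ACTA1, TNNC2, TNNT3 and MYH2 are described above. The other 6 have no name, with means over the 8 muscle libraries between 15654 and 36100 CPM. ENSBTAG00000006541 had 11534, 17070, 8881 and 14555 CPM in the IVP calves and 18561, 19096 and 17310 CPM in the MOET calves, without overlap (log2 fold change -0.52, SE 0.285, FDR 0.333). ENSBTAG00000009707 lay at 14361 ± 1670 CPM (SD, n = 4) against 16948 ± 1311 CPM (SD, n = 3) (log2 fold change -0.27, SE 0.224, FDR 0.534). ENSBTAG00000012927 (-0.28), ENSBTAG00000018204 (-0.25), ENSBTAG00000011424 (-0.19) and ENSBTAG00000013921 (-0.14) overlapped between the groups, and ENSBTAG00000018204 had a positive value of 0.15 between the full brothers.

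The members varied more between calves than other abundant genes did. Over pairs of the 7 calves, the median absolute log2 difference over the members lay between 0.105 and 0.284 for full brothers of the same group and between 0.148 and 0.275 for full brothers of which 1 was IVP and 1 MOET. It reached 0.174 to 0.373 between calves of the same group with other parents, and 0.252 to 0.489 between IVP and MOET calves with other parents. For the other genes of at least 20 CPM the pairs lay between 0.0929 and 0.229. The median coefficient of variation over the members was 18% in the 4 IVP and 9.33% in the 3 MOET calves, against 11.7% and 8.67% for the other genes of at least 20 CPM. The coefficient was lower in MOET calves for 165 of the 207 members tested (79.7%), against 65.2% of these other genes and 63.3% of all genes. The 3 MOET calves were 2 full brothers and 1 calf of another donor cow and sire. The 4 IVP calves were 2 pairs of full brothers from 1 donor cow. In this coefficient, parents and group cannot be told apart. Among the sons of Builder P, the median absolute log2 difference over the members was 0.26 between IVP calves 3208 and 3209. It was 0.105 between MOET calves 3217 and 3218 (0.157 and 0.0929 over the other genes of at least 20 CPM). IVP brothers 5833 and 5841 gave 0.284 (0.155 over these other genes). With so few pairs, this was not tested. In 96 of the 207 members tested (46.4%) the 2 IVP sons of Builder P did not overlap with the 2 IVP sons of My Dream P RC, where 51.8% of all genes did not.

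No tested marker of another cell type had an FDR under 0.05 between IVP and MOET calves (edgeR with age). The ranges below are those of the 4 IVP and the 3 MOET calves, which did not overlap in 14.0% of all genes. Of 6 fibroblast markers, 4 had a name (COL1A1, COL1A2, COL3A1 and DCN), and their summed level was 771 to 1079 CPM in IVP and 1227 to 1739 CPM in MOET calves. Their log2 fold changes lay between -0.79 and -0.41, with FDRs of 0.0694 to 0.146. The endothelial markers CDH5 and VWF, 2 of 6, summed to 79.7 to 150.9 CPM in IVP and 71.4 to 76.9 CPM in MOET calves. The highest of these sums was that of IVP calf 5833. The log2 fold change was 0.72 for CDH5 (FDR 0.0782) and 0.26 for VWF (FDR 0.412). CNN1 of smooth muscle had 9.17 to 12.7 CPM and 5.60 to 9.77 CPM, and the macrophage genes AIF1 and CSF1R summed to 5.39 to 14.3 CPM and 8.21 to 10.2 CPM. Of the hepatocyte genes, APOB was at 0 in all muscle libraries, and TTR reached 31.9 CPM in IVP calf 3209. The part of fibroblasts and vessels in the differences of the members was not tested. No marker of fat, blood, nerve or satellite cells has a name here.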

How the data were processed

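Polyadenylated RNA of the liver and the semitendinosus muscle of 8 calves was sequenced in 16 unstranded libraries. The authors filtered the read pairs with SOAPnuke, aligned them to bosTau9 with STAR (2.7), counted them per Ensembl gene with HTSeq and controlled for age with sva, by a model that is not given in the sources used here. The deposited values are therefore treated as estimated counts, not normalized for library size. They are whole numbers, so rounding changed none, although counts had been assumed when the tests were set. Columns of values that match no sample numbered 0.

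CPM were counts over the library total. Genes with low counts were removed with filterByExpr (minimum count 10, minimum total 15), libraries were scaled by TMM, and IVP was compared with MOET in the 8 muscle libraries by the quasi-likelihood test of edgeR (4.0.16) with the age of the calf (days) as a term, and p-values were adjusted by Benjamini-Hochberg over all genes tested (FDR, threshold 0.05). SE is the absolute log2 fold change divided by the square root of the F statistic of that test. It was thus derived from the test and not estimated apart from its p-value. The comparison of full brothers (2 IVP against 2 MOET calves) had no age term. limma (3.58.1) and DESeq2 (1.42.0) were alternatives in R 4.3.3, and figures were drawn with matplotlib 3.10.9 in Python 3.11.15. On simulated data for this comparison, 139 of 200 genes changed by 1 log2 unit were called (69.5%, 12854 genes), with 5.44% of the calls false.

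The members, lists and tests were chosen with earlier results of these data known. Named in the text are the 10 most abundant members, those past the threshold, up to 5 of each direction with the largest difference without overlap, those on lists of muscle roles, and the 3 genes on either side of each limit. The other named members were added after their names were seen. Gene names were taken from supplementary tables of the study, which pair 4181 of 27607 IDs with a name. Some of these tables were held in part, so no overlap with them was tested. The gene excluded by name and the methylation data were not analysed here.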

Additional observations from a re-analysis of the deposited data

Results flagged for a closer look

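Of the 51 sets of 4 IVP values examined, 1 had a calf far from the other 3, where chance gives about 1 in 20. ENSBTAG00000011995 had 177.4 CPM in the muscle of IVP calf 3208, against 0, 0 and 0.0397 CPM in the other IVP calves, 0 CPM in MOET calves 3217, 3218 and 5932, and no count in any liver library. It became a member through this 1 library.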

How the results depend on the processing

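No paired analysis was possible because no calf was both IVP and MOET, and the calf numbers in the labels are shared only between liver and muscle. The count of members at an FDR under 0.05 (1 as reported) was 4 (1.93%) with library totals alone, where 61 of 12854 genes passed (0.475%). Without a filter on low counts 7 members passed, where 186 of 20440 genes did. The count was 32 without age but 1 without age and calf 3213, 20 with DESeq2 and age, and 45 with DESeq2 and no age. It was 0 when members needed 50 CPM (173 members) or 1000 times the liver level (74 members). Leaving out 1 calf gave 1 to 14, the highest without IVP calf 3209. The count over all genes (60) was 186 without a filter, 1174 without age, 83 without age and calf 3213, 468 and 1619 with DESeq2, 21 in full brothers, 23 in calves of 1 donor cow, and 6 (without MOET calf 3218) to 350 (without IVP calf 3209) with 1 calf left out. The median log2 fold change of the members (-0.11) was -0.20 in calves of 1 donor cow and -0.20 (without IVP calf 3209) to -0.0527 (without IVP calf 5833) with 1 calf left out, -0.19 without MOET calf 5932 and -0.07 without MOET calf 3217. Apart from the smaller sets of members and calves, the cause was not tested. Among 966 alternatives for the 46 members with values, 888 kept direction and side of the threshold, 67 passed it in addition, 0 lost it and 11 changed sign. The sign changes were ENSBTAG00000018204 in full brothers (0.15), DTNA with upper quartile factors (0.0085), library totals (0.0236) and full brothers (0.0253), and, with 1 calf left out, DTNA (-0.0727 to 0.0737), RYR1 (-0.23 to 0.0509) and ANO5 (-0.19 to 0.0555). TMM factors computed from genes other than the members, an alternative chosen after seeing the data, left 1 member past the threshold. Depth limited the liver levels, where 31 members had no count in any library.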
